A study of Homo sapiens with 4 samples.

Results

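The 8 genes described here encode receptor tyrosine kinases and a ligand: the TAM receptors AXL, TYRO3 and MERTK, their ligand GAS6, and the receptors MET, FGFR1, DDR1 and ROR1. They were chosen by name, and all 8 were found by symbol among the 20804 genes of an RNA sequencing table. The libraries came from MDA-MB-231, an established human line of triple-negative breast cancer, and were labelled with the genotype miR-3662-KO (KO, 2 libraries) or WT (2 libraries). Both groups share the cell line, and the labels name no treatment or time. The label of each KO library gives a knockout, whereas the title of the series names CRISPR interference and activation, methods that leave the gene in place. The design text mentions sorting by microRNA activity, so what was done to the KO cells is uncertain. No source used here says whether the libraries of a group are separate cultures or clones, so every p-value below measures the spread between these libraries, which may be technical. Values are FPKM, fragments scaled by transcript length and by library size, which allows levels to be compared between genes of different length.

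Receptor tyrosine kinases cross the cell membrane once, bind a ligand outside the cell and phosphorylate tyrosines inside it, which recruits adaptor proteins such as GRB2 and GAB2. The TAM receptors take their name from TYRO3, AXL and MERTK. They are bridged to phosphatidylserine by GAS6 or by protein S, the product of PROS1, and AXL responds to GAS6 alone. MET is the receptor of hepatocyte growth factor, FGFR1 a receptor of fibroblast growth factors, DDR1 a receptor of collagen, and ROR1 a receptor of WNT5A. In mesenchymal-like breast cancer lines such as MDA-MB-231, AXL is known as an abundant receptor linked to invasion and drug resistance.

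The mature microRNA that names the KO group is shown with its seed, bases 2 to 8, in capitals, because pairing to the seed is the usual way a microRNA meets its targets. It lies on chromosome 6 from 134979355 to 134979378, minus strand, GRCh38.p14 (sequence from RefSeq).
hsa-miR-3662: gAAAAUGAugaguagugacugaug
The 7-base complement of the seed, TCATTTT, was looked for in the 8 genes, taking for each its longest 3′ UTR in GENCODE 29. It was found in ROR1 alone, which held 2 matches in a 3′ UTR of 2643 bases, and 33.5% of the 10621 tested genes with an annotated 3′ UTR held at least 1 match. The 2 ROR1 stretches lie on the plus strand of chromosome 1 in GRCh38, from 64180298 to 64180324 and from 64180416 to 64180442, with the match in capitals.
ROR1 first match: tctcaaagtcTCATTTTtactttaaag
ROR1 second match: attgatgtttTCATTTTtaaaaaatac
Neither match is followed by A, the base that strengthens many microRNA sites. A match is a description of letters, not of binding. The value of ROR1 is given with the other receptors below.

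Across the 4 libraries, FPKM sums ran from 528986 to 544650 in KO and from 504102 to 520527 in WT. Read depth is unknown, so the precision of a low value cannot be read from the value. Of 6 markers expected in this line, all reached 1 FPKM (summed level 2063 to 2144 in KO and 1915 to 2071 in WT). Among them CAV1 was higher in KO, at 442.80 and 449.72 FPKM, against 178.92 and 170.49 FPKM in WT, and the others were not called. Of 7 measured markers expected to be low, only ERBB2 and EPCAM reached 1 FPKM in any library, and ESR1 was at 0.01 or less. ERBB2 stood at 11.44 and 8.55 FPKM in KO and at 8.59 and 10.45 FPKM in WT, which is above the near-zero level of ESR1. EPCAM was lower in KO, at 0.34 and 0.05 FPKM, against 1.08 and 1.15 FPKM in WT. Its WT values alone brought it into the test. Of other cell types, the 5 measured leukocyte markers summed to 67.9 and 117 FPKM in KO and to 30.3 and 39.3 FPKM in WT. Nearly all of this was CD68, a lysosomal glycoprotein, which stood at 67.72 and 117.02 FPKM in KO, against 30.15 and 39.03 FPKM in WT; CD14 was at 0.25 FPKM or less, and PTPRC, CD3E and AIF1 were listed at 0 in every library. The 5 endothelial markers summed to at most 0.71 FPKM and the 4 measured fibroblast markers to at most 1.56. The keratins and MUC1 of luminal epithelium summed to 386 and 342 FPKM in KO and to 584 and 685 FPKM in WT. They did not move together. KRT8 and KRT18, which made up most of the sum, were lower in KO, and KRT19 was not called. MUC1 was higher, at 3.24 and 2.44 FPKM in KO, against 0.72 and 1.20 FPKM in WT. Any part of these marker differences in the results below was not tested.

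Of the 8 genes, 1 rose in KO, FGFR1, and none fell (limma, adjusted p under 0.05 over 11786 tested genes). All 8 passed the filter of at least 1 FPKM in at least 2 libraries. Over all tested genes 27% changed, 16.2% being higher and 10.8% lower in KO, so 1 of 8 is not above the background. In such bulk libraries fewer expressing cells and less RNA per cell cannot be told apart. The median log2 fold change was 0.24 for the 8 genes and 0.074 for all tested genes. KO and WT values did not overlap for FGFR1 and GAS6, 2 of 8 genes, against 68% of all tested genes (39.3% with KO above WT, the direction of both). The first KO library was above the second for 7 of the 8 genes, MET being the exception.

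The 8 genes covered a wide range of levels. In KO the order by mean was GAS6, AXL, FGFR1, MET, TYRO3, DDR1, ROR1 and MERTK, and in WT it was AXL, GAS6, MET, TYRO3, FGFR1, DDR1, ROR1 and MERTK. Neighbours whose libraries overlapped in KO were GAS6 and AXL, FGFR1 and MET, TYRO3 and DDR1, and DDR1 and ROR1. In WT they were MET and TYRO3, FGFR1 and DDR1, and DDR1 and ROR1. AXL and GAS6 stood apart from the other 6 genes in every library.

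**Figure D1:**
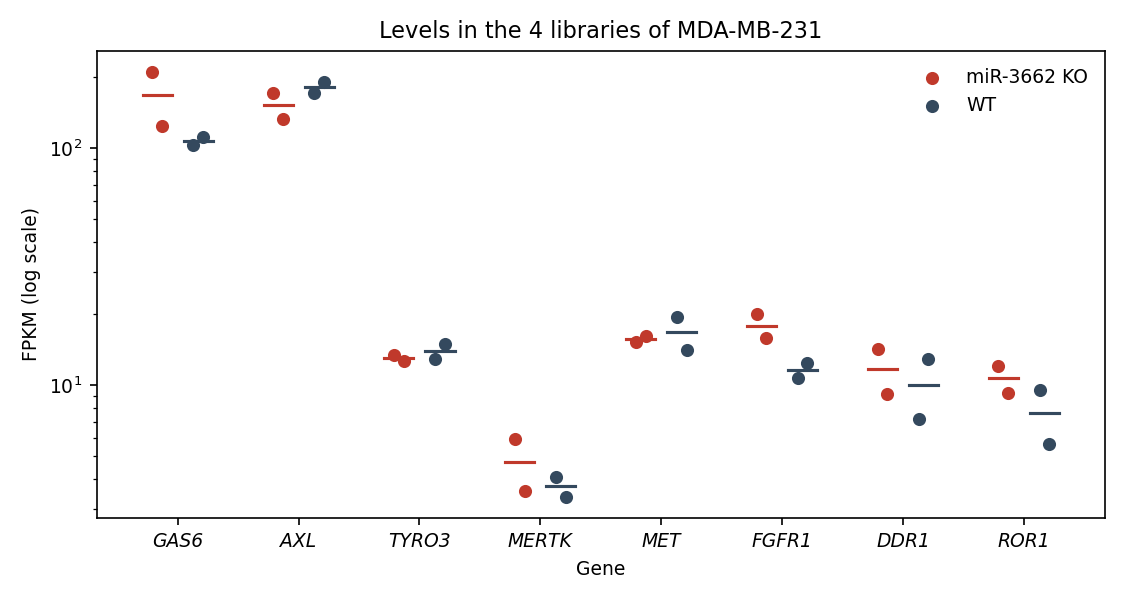
FPKM (log axis) of the 8 genes in KO (red, left of each pair) and WT (dark, right); each point is 1 library and each bar the mean of 2. GAS6 and AXL lie above 100 FPKM in all 4 libraries, MERTK lies lowest, and the groups are apart only for FGFR1 and GAS6.

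AXL (identifier 558, plus strand of chromosome 19 from 41219203 to 41261766 in GRCh38, GENCODE 29) was the most abundant receptor tyrosine kinase in every library. It stood at 171.28 and 132.99 FPKM in KO, against 170.97 and 190.17 FPKM in WT. The second KO library was the lowest and the first KO library lay just above the lower WT library, so the groups overlapped. The mean was 152 ± 27.1 FPKM in KO and 181 ± 13.6 in WT (SD, n = 2 each), a log2 fold change of -0.26 ± 0.14 (SE). The 95% interval ran from -0.58 to 0.074, and the adjusted p of 0.212 did not pass. The interval spans falls of up to its lower bound, so equal levels are not shown. Of the summed FPKM of all measured receptor tyrosine kinases, AXL held 39.0% and 36.7% in the KO libraries and 37.4% and 38.8% in the WT libraries.

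The other TAM receptors were lower than AXL in all libraries. TYRO3 (identifier 7301, chromosome 15 from 41557675 to 41583586, plus strand) was at 13.35 and 12.65 FPKM in KO, against 12.90 and 14.93 FPKM in WT. Its values overlapped, with a log2 fold change of -0.088 ± 0.14 (SE), a 95% interval from -0.42 to 0.24 and an adjusted p of 0.666. MERTK (identifier 10461, chromosome 2 from 111898479 to 112029561, plus strand), the TAM receptor best known from the uptake of dying cells by macrophages and retinal epithelium, was at 5.91 and 3.58 FPKM in KO, against 4.10 and 3.38 FPKM in WT. The first KO library was the highest and the second lay between the WT libraries. The log2 fold change was 0.25 ± 0.22 (SE), with a 95% interval from -0.25 to 0.75 and an adjusted p of 0.410. AXL made up 89.9% and 89.1% of the summed TAM receptor FPKM in KO and 91.0% and 91.2% in WT. TYRO3 has a pseudogene, TYRO3P, that could share reads with it and was at 0.14 FPKM or less in every library.

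GAS6 (identifier 2621, chromosome 13 from 113820549 to 113864067, minus strand), the vitamin K-dependent ligand of all TAM receptors, was at 209.38 and 124.13 FPKM in KO, against 102.80 and 110.94 FPKM in WT. Both KO libraries were above both WT libraries, but the first KO library was far above the second. The gap between the KO libraries was 0.75 on the log2 scale, whereas the median gap over all tested genes was 0.15. The mean was 167 ± 60.3 FPKM in KO and 107 ± 5.76 in WT (SD, n = 2 each), a log2 fold change of 0.59 ± 0.22 (SE) with a 95% interval from 0.083 to 1.10. The adjusted p of 0.0817 did not pass. The value was 0.96 (adjusted p 0.0102) without the second KO library and 0.22 (0.250) without the first, so the call depended on which KO library was used. The antisense RNA GAS6-AS1, which overlaps GAS6, was at 0.09 FPKM or less in all libraries.

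The ratio of GAS6 to AXL, chosen after the values were seen, does not depend on scaling between libraries. It was 1.22 and 0.933 in KO, against 0.601 and 0.583 in WT. GAS6 was thus above AXL in 1 KO library and below it in the other 3 libraries, and the groups did not overlap. The difference of 0.85 on the log2 scale had an exact two-sided permutation p of 0.333, the smallest that 2 against 2 libraries can give.

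PROS1, which encodes protein S, the ligand of TYRO3 and MERTK, rose in KO. It was at 10.73 and 8.59 FPKM in KO, against 3.03 and 2.37 FPKM in WT, and rose by 1.53 ± 0.17 on the log2 scale (SE; adjusted p 0.00207). LGALS3, the gene of galectin-3, a sugar-binding protein reported to bind MERTK, was at 227.41 and 192.98 FPKM in KO, against 44.85 and 61.39 FPKM in WT. It rose by 1.98 ± 0.17 (log2, SE) with an adjusted p of 0.000794. Both calls passed without any 1 of the 4 libraries. Among genes that make GAS6 and protein S active by vitamin K-dependent carboxylation, the carboxylase gene GGCX (-0.15, adjusted p 0.521), VKORC1 (0.27, 0.154) and VKORC1L1 (-0.39, 0.0730) did not pass, their values being log2 fold changes.

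MET (identifier 4233, chromosome 7 from 116672390 to 116798386, plus strand) was at 15.23 and 16.04 FPKM in KO, against 19.39 and 13.99 FPKM in WT. The KO values lay between the WT values. The log2 fold change was -0.072 ± 0.17 (SE), with a 95% interval from -0.47 to 0.33 and an adjusted p of 0.778. Its ligand gene HGF was not analysed here. SPINT2, an inhibitor of the proteases that activate hepatocyte growth factor, rose to 206 ± 13.9 FPKM in KO, against 101 ± 22.8 in WT (SD, n = 2 each), or 1.03 on the log2 scale (adjusted p 0.00513). PLAU, the gene of urokinase, which can cleave that growth factor, rose to 435 ± 7.42 FPKM in KO, against 254 ± 64.0 in WT (0.80, adjusted p 0.0127). The PLAU call was lost without the first KO library (0.0510), the second KO library (0.0518) or the first WT library (0.0574, log2 fold change 0.54). MST1R, the closest relative of MET and the receptor of macrophage-stimulating protein, was at 3.43 and 3.10 FPKM in KO, against 1.24 and 1.36 FPKM in WT. It rose by 0.89 ± 0.14 (log2, SE) with an adjusted p of 0.00606 and passed without any 1 library.

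FGFR1 (identifier 2260, chromosome 8 from 38400215 to 38468834, minus strand) rose in KO. It was at 19.88 and 15.73 FPKM in KO, against 10.73 and 12.36 FPKM in WT. Both KO libraries were above both WT libraries. The mean was 17.8 ± 2.93 FPKM in KO and 11.5 ± 1.15 in WT (SD, n = 2 each), a ratio of 1.54. The log2 fold change was 0.58 ± 0.16 (SE; 95% interval 0.21 to 0.95, adjusted p 0.0340). The call was lost when the libraries were scaled by the median of ratios (0.48, adjusted p 0.0667), without the filter on low values (0.58, 0.154), without the first KO library (0.42, 0.157), and on leaving out WT replicate 1 (0.48, 0.150) or WT replicate 2 (0.67, 0.0668). It passed only just without the second KO library (0.74, 0.0483). LETM2, a neighbour on the opposite strand that overlaps FGFR1, was at 3.95 and 5.69 FPKM in KO, against 7.12 and 6.82 FPKM in WT (adjusted p 0.0903), and no source used here says whether reads were assigned by strand. FGF5 was the fibroblast growth factor with the highest level, at 30.36 and 24.05 FPKM in KO, against 21.78 and 17.63 FPKM in WT (log2 fold change 0.44, adjusted p 0.0824). FGF2 was at 0.01 FPKM or less in all libraries. The decoy receptor gene FGFRL1 was at 16.34 and 15.91 FPKM in KO, against 12.45 and 14.65 FPKM in WT (0.24, 0.237). The FGFR1 value covers 11 transcript models, 2 of them assembled without a RefSeq entry, and changes between isoforms cannot be read from it. The same limit holds for MET (6 models) and AXL (4 models).

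DDR1 (identifier 780, chromosome 6 from 30876421 to 30900156, plus strand) was at 14.21 and 9.18 FPKM in KO, against 7.19 and 12.84 FPKM in WT. Each group held a high and a low library. The log2 fold change was 0.22 ± 0.28 (SE), the widest error of the 8 genes, with a 95% interval from -0.42 to 0.87 and an adjusted p of 0.572. The value of DDR1 covers 17 transcript models, 8 of them assembled without a RefSeq entry, and changes between isoforms cannot be read from it. Its relative DDR2 was at 0.14 FPKM or less. Of the measured genes of collagens that bind DDR1, those tested, COL4A1, COL4A2 and COL1A1, fell in KO. COL1A2, COL3A1 and COL4A5 were at 0.01 FPKM or less in every library and were not tested. COL4A1 was at 11.23 and 9.43 FPKM in KO, against 22.34 and 18.97 FPKM in WT (log2 fold change -0.93, adjusted p 0.00614). COL4A2 was at 35.50 and 28.03 FPKM in KO, against 55.73 and 51.63 FPKM in WT (-0.75, 0.0105). COL1A1 was at 0.36 and 0.27 FPKM in KO, against 1.11 and 1.45 FPKM in WT (-0.79, 0.00915), and it entered the test only through its WT values. The call of COL4A2 was lost without the first WT library (adjusted p 0.0629) and that of COL1A1 without the second KO library (0.0554).

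ROR1 (identifier 4919, chromosome 1 from 63774022 to 64181498, plus strand), an oncofetal receptor, was the gene with the seed matches printed above. It was at 12.06 and 9.27 FPKM in KO, against 9.56 and 5.63 FPKM in WT. The lower KO library was just below the higher WT library, so the groups overlapped by a small margin. The log2 fold change was 0.47 ± 0.24 (SE), with a 95% interval from -0.081 to 1.02 and an adjusted p of 0.174. The value was 0.13 without the second WT library and 0.80 without the first, and neither passed (adjusted p 0.700 and 0.0526). ROR1-AS1, an antisense RNA of this locus, was at 0.42 and 0.32 FPKM in KO, against 0.19 and 0.17 FPKM in WT, below the filter. The ligand gene WNT5A was at 0.71 and 0.46 FPKM in KO, against 0.37 and 0.42 FPKM in WT. WNT5B was at 16.70 and 16.76 FPKM in KO, against 20.66 and 20.39 FPKM in WT (log2 fold change -0.28, adjusted p 0.133). The relative ROR2 was listed at 0 in every library.

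Over the ligands as a list, 8 of 27 measured genes were tested, 2 rose and 3 fell, with a median log2 fold change of 0.082. Another 18 were under 1 FPKM in every library. The share of tested ligands that changed was 62.5%, beside the 27% of all tested genes. The count includes COL1A1, which entered the test through WT alone. The list was chosen with earlier results of these data known, so the share is a description and was not tested.

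**Figure D2:**
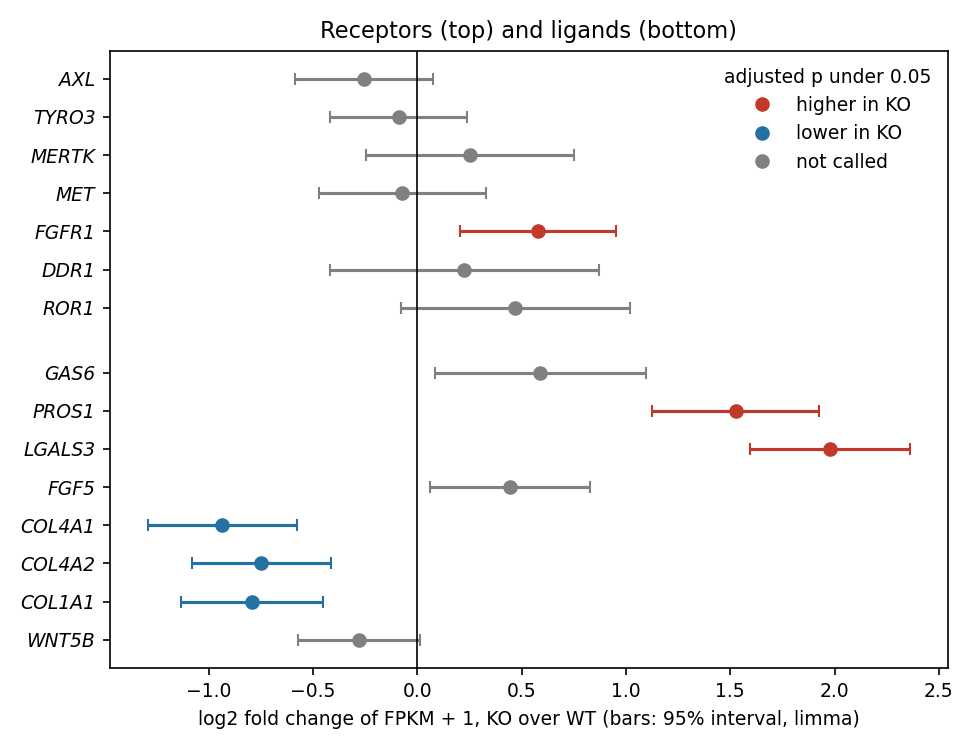
Log2 fold change of FPKM + 1, KO over WT, for the 7 receptors (top) and the 8 tested ligands (bottom), with 95% intervals from limma; red marks an adjusted p under 0.05 higher in KO, blue lower, grey not called. FGFR1 is the only receptor in red, PROS1 and LGALS3 lie farthest to the right, and the 3 collagen genes lie to the left.

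Set among all measured receptor tyrosine kinases, the 7 receptors described here lay between ranks 1 and 13 by level, with other family members between them. Among the 22 that reached 1 FPKM, ROR1 and MERTK were in the middle. Of 58 genes of the family, 54 were measured, 22 reached 1 FPKM in some library and 21 were tested. By mean over the 4 libraries AXL ranked 1, MET 4, FGFR1 6, TYRO3 7, DDR1 9, ROR1 11 and MERTK 13. Of the 21 tested, 2 rose (FGFR1 and MST1R) and 3 fell (EPHA2, PTK7 and TIE1), or 23.8%, near the 27% of all tested genes. The median log2 fold change was -0.072. After scaling by the median of ratios 1 rose and 5 fell. Both counts of falls include PTK7 and TIE1, which entered the test through WT alone.

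EPHA2, an ephrin receptor and the family member next to AXL in level, was at 98.14 and 86.14 FPKM in KO, against 131.41 and 145.01 FPKM in WT. It fell by 0.58 on the log2 scale (adjusted p 0.0127). The call was lost without the second KO library (0.0526) or the second WT library (0.0851). PTK7, a pseudokinase of Wnt signalling, fell by 0.83 to 0.725 ± 0.233 FPKM in KO, against 2.07 ± 0.460 in WT (adjusted p 0.0134), and its call was lost without the second KO library (0.0862) or the second WT library (0.0581). TIE1, an endothelial receptor, was at 0.31 and 0.12 FPKM in KO, against 1.16 and 1.08 FPKM in WT (-0.81, adjusted p 0.00834; 0.0526 without the second KO library). PTK7 and TIE1 entered the test only through their WT values.

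**Figure D3:**
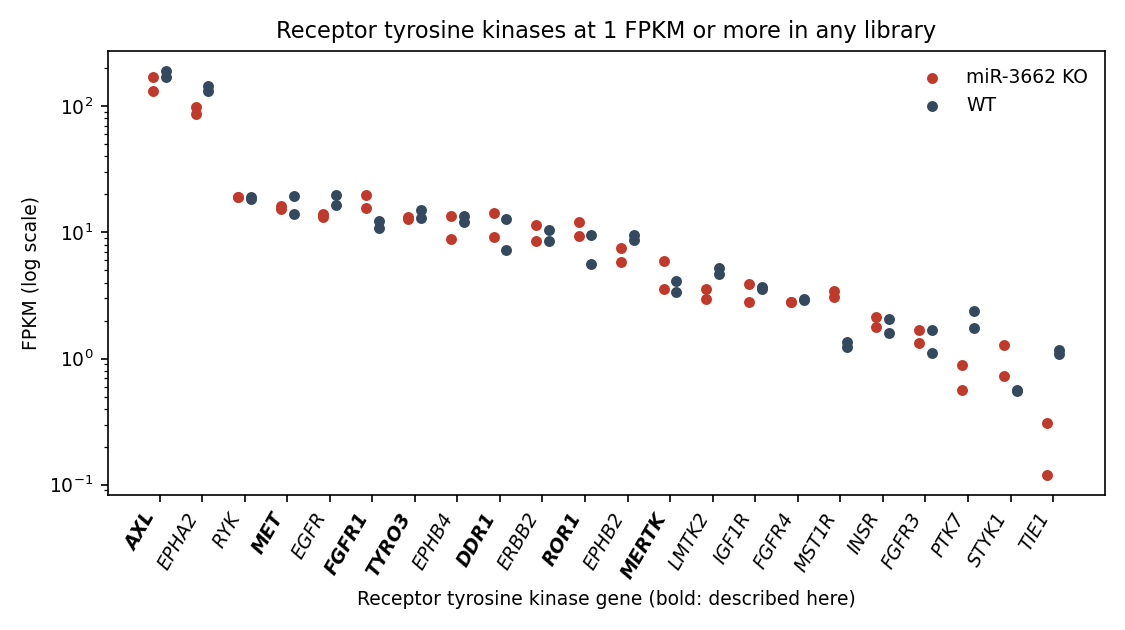
FPKM (log axis) of the 22 receptor tyrosine kinases that reached 1 FPKM in any library, ordered by mean; red points are KO libraries and dark points WT libraries, and names in bold are described here. AXL and EPHA2 stand above all others, and the EPHA2 groups are apart while those of AXL overlap.

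By likeness of pattern, measured as the Euclidean distance between log2(FPKM + 1) profiles over the 4 libraries after centring and compared over 28 tested receptors and ligands, the genes nearest to AXL were EPHB4 (0.129), IGF1R (0.208) and EPHB2 (0.255). EPHB4 was at 13.37 and 8.93 FPKM in KO, against 12.15 and 13.53 FPKM in WT, with the second KO library lowest as in AXL. Those nearest to MET were RYK (0.307), FGFR4 (0.335) and EGFR (0.363). With 4 libraries and small differences these distances describe flat profiles as much as shared ones. EGFR, listed with the markers of the line, was at 13.85 and 13.31 FPKM in KO, against 19.92 and 16.60 FPKM in WT (adjusted p 0.0772).

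Co-receptors moved in both directions. Of 16 tested, 3 rose and 1 fell, with a median log2 fold change of 0.10, against 2 and 1 after scaling. The share called was 25.0%, near the 27% of all tested genes. SDC2, a heparan sulfate proteoglycan, rose to 4.81 ± 0.240 FPKM in KO, against 1.31 ± 0.587 in WT (SD, n = 2 each), or 1.36 on the log2 scale (adjusted p 0.00429). SDC1, of the same family, fell to 37.6 ± 1.32 FPKM in KO, against 62.5 ± 3.29 in WT (-0.72, 0.00606). NRP1, a co-receptor of several growth factors, rose by 0.96 (0.0106). The integrin gene ITGB1 rose by 0.43 (0.0335), a call that was lost after scaling (0.0768) and without any 1 library (0.0608 to 0.213). CD44, which presents growth factors to MET, was at 114.08 and 104.59 FPKM in KO, against 110.59 and 103.86 FPKM in WT (adjusted p 0.873).

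Among adaptors and effectors that bind the active receptors, 4 of 23 tested genes rose and 2 fell, with a median of 0.015, against 2 and 3 after scaling. The share called was 26.1%, near the 27% of all tested genes. GAB2, a docking protein, rose to 7.27 ± 0.198 FPKM in KO, against 3.43 ± 0.297 in WT (log2 fold change 0.90, adjusted p 0.00606). SOS2, a RAS exchange factor, rose by 0.60 (0.0272) and PIK3R1, a regulatory subunit of phosphoinositide 3-kinase, by 0.59 (0.0357). The adaptor genes CRKL and GRB2 fell by 0.52 (0.0254) and 0.38 (0.0368). The calls of CRKL and GRB2 were lost without any 1 of the 4 libraries (adjusted p 0.0765 to 0.112 and 0.0667 to 0.196). SOS2 and PIK3R1 were not called without the first KO, the second KO or the second WT library (adjusted p up to 0.123 for SOS2 and 0.154 for PIK3R1), nor was PIK3R1 after scaling (0.0587).

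Genes of receptor turnover and feedback had 6 rises and 1 fall among 24 tested, with a median of 0.13, against 5 and 2 after scaling. The share called was 29.2%, near the 27% of all tested genes, of which 16.2% were higher and 10.8% lower. ERRFI1, a feedback inhibitor of EGFR kinases, rose to 139 ± 3.22 FPKM in KO, against 69.7 ± 8.77 in WT (log2 fold change 0.99, adjusted p 0.00274). LRIG1, which promotes the degradation of EGFR and MET, rose by 1.12 (0.0120), and STAM2, of the endosomal sorting machinery, by 0.82 (0.0123). PTPRF, a receptor tyrosine phosphatase, fell to 53.1 ± 1.46 FPKM in KO, against 95.2 ± 0.445 in WT (-0.83, 0.00319). LRIG1 was not called without the first WT library (0.0550), nor STAM2 without the second KO (0.0832) or the second WT library (0.0515). The sheddase genes ADAM10 (0.34, adjusted p 0.121) and ADAM17 (0.016, 0.945), which cut AXL and other receptors from the surface, did not pass.

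The spread within a group set what could be told for the 8 genes. With each library left out in turn, the sign of the log2 fold change held in all 4 cases for AXL (-0.44 to -0.074), GAS6 (0.22 to 0.96), FGFR1 (0.42 to 0.74) and ROR1 (0.13 to 0.80). It turned in at least 1 case for TYRO3, MERTK, MET and DDR1.

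**Figure D4:**
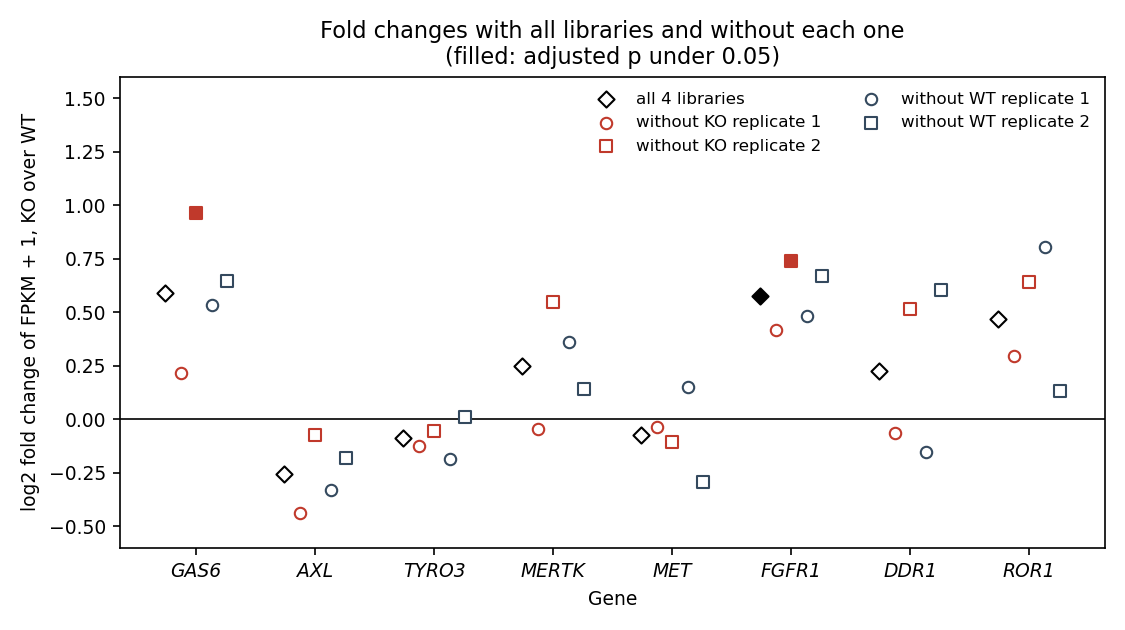
Log2 fold change of FPKM + 1, KO over WT, of the 8 genes with all 4 libraries (black diamonds), without a KO library (red) and without a WT library (dark); filled symbols have an adjusted p under 0.05. FGFR1 is filled with all libraries and without the second KO library, and GAS6 is filled only without the second KO library.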

How the data were processed

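The authors deposited FPKM values, 1 per gene and library with 2 decimals, per the file headers. The submitters' processing notes name HISAT, StringTie, Cufflinks and GATK and the build hg38; their roles and versions, the gene lengths and the filters are stated in no source used here. Values were analysed as log2(FPKM + 1), so fold changes of low genes are understated. The unscaled values of each gene that reached 1 FPKM in 2 or more libraries entered limma 3.58.1 (R 4.3.3; moderated test with a mean-variance trend, Benjamini-Hochberg adjustment over all 11786 tested genes, threshold 0.05), checked on simulated data. In the simulated data 25.4% of true log2 changes of 0.5 were called, and 100% of those of 1. Of 163 calls, 13 were false. The simulation changed far fewer genes than the 3184 called in the data, which makes the adjusted threshold stricter. Its noise was drawn from the spread that the fit itself estimated. These shares therefore do not carry over to the data. Changes near 0.5 could be missed, but how often cannot be read from the simulation. Adjusted p-values come from the limma fit unless an alternative (another setting or a library left out) is named beside them. The fit without 1 library assumes that the lone library of a group varies like the others. No lists were tested as sets. The 8 genes and the lists were chosen with earlier results of these data known. Named were the 8 genes, up to 3 higher and 3 lower changed genes of each list with the smallest p, ligands, and the 3 nearest profiles to AXL and MET; genes named beyond this rule were chosen after their values were seen. Alternatives were pseudocount 0.1, no filter, a filter of 5 FPKM, median-of-ratios scaling, a replicate block, no trend and leaving out each library. Genes were placed with GENCODE 29. Python 3.11.15 and pandas 2.3.3 were used.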

Additional observations from a re-analysis of the deposited data

How the results depend on the processing

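Over all genes, 3184 changed, and 1402 to 1902 did so with 1 library left out. Without the filter on low values no gene passed in limma (0 called, 5620 with an unadjusted p under 0.05). After scaling by the median of ratios 3241 changed, with 1413 higher and 1828 lower in KO, against 1906 higher and 1278 lower without scaling. Of the 8 genes, 1 changed; none did without the filter (0, with 1 at an unadjusted p under 0.05) or after scaling (0, with 2), and 0 to 2 did with 1 library left out. FGFR1 had a log2 fold change of 0.58 (adjusted p 0.154) without the filter and 0.48 (0.0667) after scaling, and 0.42 to 0.74 with 1 library left out. GAS6 ranged from 0.22 to 0.96 with 1 library left out and kept its sign. TYRO3 ranged from -0.19 to 0.0099, MERTK from -0.045 to 0.55, MET from -0.29 to 0.15 and DDR1 from -0.15 to 0.60. The signs of TYRO3, MERTK, MET and DDR1 turned in at least 1 case, and none of these 4 passed in any alternative. AXL and ROR1 kept their sign and did not pass under any of the 10 alternatives.

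The cause of these changes was not tested, except that leaving out a library leaves fewer samples. Of 28 other listed genes that changed, 11 passed without any 1 library, and none passed without the filter. KO and WT share replicate numbers that no label ties to a culture or day, and same-numbered libraries did not deviate together (correlation of deviations -0.18 over tested genes). With the replicate number as a block 2864 genes and 2 of the 8 changed, GAS6 (0.59, adjusted p 0.0229) joining FGFR1, while CRKL (0.0531) and GRB2 (0.0584) no longer passed. Unknown read depth limits what can be told of genes near 1 FPKM.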

Other observations

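Some receptor kinases and a ligand gene below the filter showed KO values above WT values, picked after their values were seen and not tested. Over all tested genes 39.3% had KO values above WT values, but this share leaves out genes below the filter, for which none was computed. The kinases EPHA7, EPHA4, DDR2, EPHA1 and ERBB4, also below the filter, went the other way, all at 0.14 FPKM or less. The ligand gene FGF1 was lower too, at 0.49 and 0.32 FPKM in KO, against 1.07 and 0.57 FPKM in WT. So was the ligand gene FGF22, at 0.30 and 0.07 FPKM in KO, against 0.43 and 0.36 FPKM in WT. ERBB3, a partner of ERBB2 without strong kinase activity of its own, was at 0.94 FPKM in both KO libraries, against 0.32 and 0.40 FPKM in the WT libraries. STYK1 was at 0.73 and 1.28 FPKM in KO, against 0.56 and 0.55 FPKM in WT. MST1, which encodes the ligand of the MET relative MST1R, was at 0.48 and 0.55 FPKM in KO, against 0.21 and 0.11 FPKM in WT.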
